A study of Homo sapiens with 32 samples.

Results

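The neutral MACC line of LNCaP was compared with the parental line after 48 h under 2.5 µM tamoxifen. These 2 groups were taken from the sample labels and hold 4 libraries each, 8 of the 32 libraries of the series. LNCaP is an established human prostate cancer line that depends on androgen and was derived from a nodal metastasis. The neutral line carries a lentiviral MACC (modifier of ARE-containing chromatin) with a DNA binding domain, the tamoxifen-gated domain ERT2 and a 3X FLAG tag, and has no chromatin modifying domain. The line was infected with crude lentivirus and selected with blasticidin, in a vector named for its PGK promoter, and is not described as a clone. The parental line carries no construct, and no blasticidin is stated for it. Both groups received the same tamoxifen and were cultured on poly-L-lysine coated plates in RPMI-1640 with FBS. The 8 libraries of the same lines under ethanol vehicle were used to ask whether each difference was also found without the ligand. No empty-vector library was analysed here, so the fusion protein, the viral vector and the selection cannot be told apart.

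The androgen response element (ARE) is an inverted repeat through which androgen signalling reaches its genes, and the DNA binding domain of a MACC is meant to bring it there. ERT2 is an engineered estrogen receptor ligand domain that is held outside the nucleus until tamoxifen binds. The neutral form can thus occupy AREs in the nucleus without adding an activating or silencing domain, and it serves as the reference for forms carrying KRAB (repressive) or VP64 (activating).

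ESR1, which supplies ERT2, had counts in every neutral library. Counts on this gene (6:151977826-152450754, plus strand), which encodes the estrogen receptor, were 0, 0, 0 and 2 in the parental tamoxifen libraries and 109, 66, 97 and 87 in the neutral ones. The groups did not overlap, and the ratio of summed counts scaled by library size was 142, with a 95% exact interval from 38.9 to 1170 that covers counting error only. Under vehicle the same ratio was 323 (95% exact interval 57.7 to 12800), from 1 count in the parental and 446 in the neutral libraries. ZNF10, a source of KRAB domains, had 0 counts in all 16 neutral and parental libraries and 11 to 17 counts in the repressive tamoxifen libraries. Within the neutral line ESR1 was present under both treatments, at 141 ± 15.7 normalized counts (CPM, counts scaled by TMM-corrected library size) under vehicle and 128 ± 16.01 under tamoxifen (mean ± SD, n = 4 libraries each), and its response to tamoxifen had a log2 value of -0.16 ± 0.12 (SE, adjusted p = 0.586 by edgeR).

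**Figure D1:**
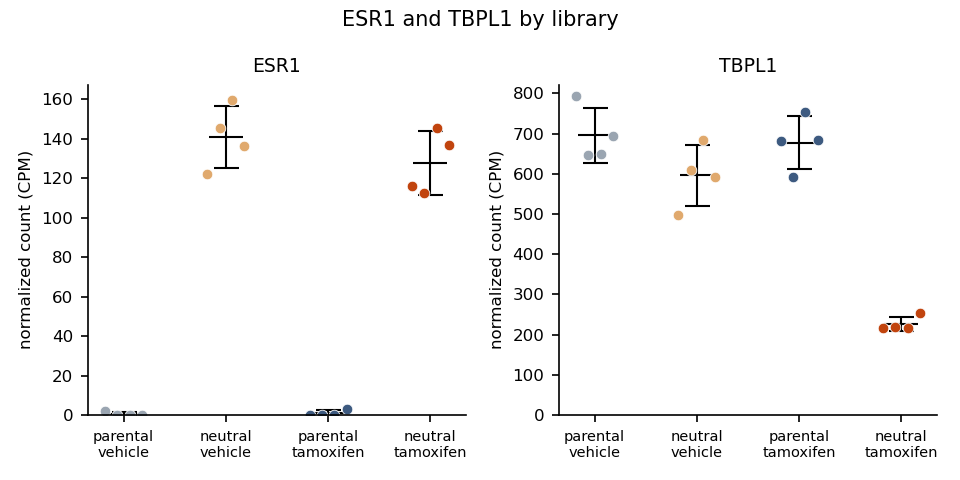
Normalized counts (CPM) of ESR1 and TBPL1 in the parental and neutral lines under vehicle and tamoxifen, with a point for each library and a bar at the mean ± SD. ESR1 is higher in the neutral line under both treatments, whereas TBPL1 is lower than in every other group only in the neutral line under tamoxifen (215.9 to 253.4 against 497.3 to 792.7).

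Summed gene counts per library were low, and the sequencing depth is not among the values used here. Estimated counts summed to 583481 to 1164808 in the neutral tamoxifen libraries and 488291 to 664864 in the parental ones, and 3985 of 57773 genes passed the expression filter. Neutral tamoxifen replicate 1 stood apart and had the highest total. Of its counts 29.8% fell on 2 pseudogene features that held 8.66 to 11.4% in the other neutral tamoxifen libraries. Its chi-square per gene against its replicates was 17.1 to 25.8 (1.48 to 4.05 among the others). All 12 LNCaP markers examined were detected, with summed counts of 917 to 1693 in neutral and 739 to 984 in parental libraries. KRT8, whose exons overlap KRT18 on the opposite strand, was the highest. Its mean was 820 counts over the 8 libraries, whereas that of KLK3 was 25.1. Of 11 markers of stroma, endothelium, immune cells and hepatocytes found in the table, 8 (COL1A2, COL3A1, DCN, PTPRC, CD3E, VWF, ALB and CD44) were at 0 in all 8 libraries, and the summed count of the list was 5 to 12 in neutral and 2 to 14 in parental libraries.

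Many counts lie on genes whose exons overlap another gene on the opposite strand. Such genes held 80.6% of the annotated counts. Per kilobase of exon, GAPDH, a glycolytic enzyme, had a mean of 30.5 counts and the lncRNA RP5-940J5.9 across from it 42827. TUBA1B, an alpha tubulin, had 3.22 counts per kilobase and RP11-386G11.10 across from it 10365. The kit keeps the strand, whereas the strand setting of the counting is not given in the sources used here. Of the 264 annotated genes that differed between the lines under tamoxifen, 221 (83.7%) had such a partner, against 76.5% of annotated tested genes. Partners of named genes are therefore given, though not every one, and a gene with no partner stated may still have one. Values here are counts under each gene's name, which may not be that gene's own expression. Which strand a value belongs to was not tested.

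Under tamoxifen the lines differed at 274 of 3985 tested genes (6.88%, edgeR, adjusted p under 0.05). Neutral cells were higher at 133 of these (3.34% of tested genes) and lower at 141 (3.54%). Differences were modest in size: the median absolute log2 difference among the 274 was 0.63, 172 exceeded 0.5 and 69 exceeded 1. By annotation 161 were protein-coding and 87 lncRNA. The 2 groups did not overlap at 516 genes (12.9% of those tested), among them 246 of the 274. In bulk libraries a change in every cell and a change in the share of expressing cells cannot be told apart. Without neutral tamoxifen replicate 1, 293 genes were called, 231 of them shared with the full comparison, and all 274 kept their sign. With DESeq2's test 180 genes were called, 167 of them shared.

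**Figure D2:**
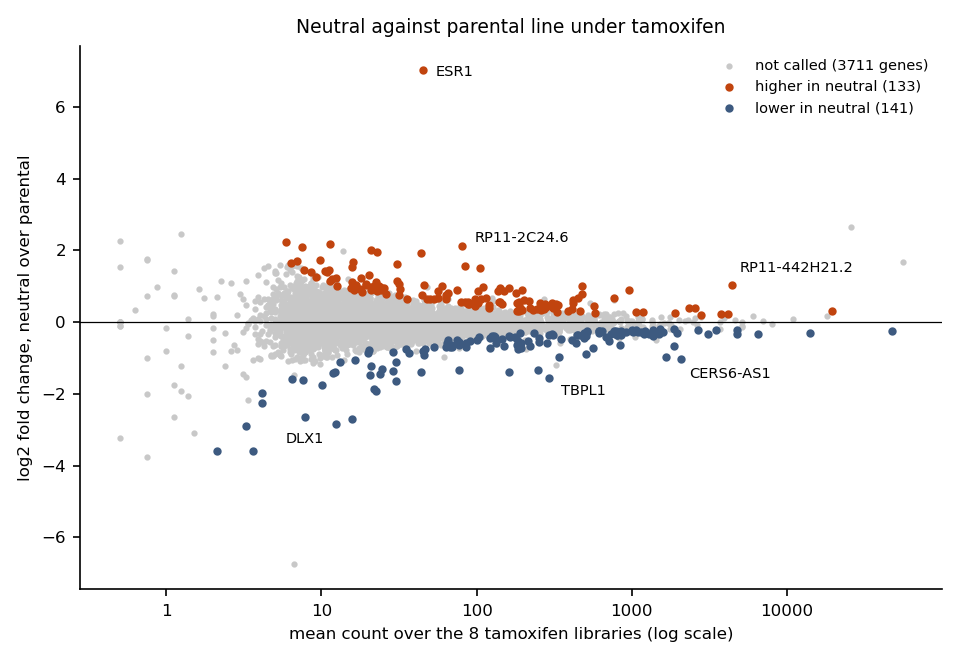
Log2 difference of the neutral against the parental line under tamoxifen (vertical axis) against the mean count over the 8 libraries (horizontal log axis), with a point for each of 3985 tested genes. The 133 genes called higher and 141 called lower are coloured. ESR1 stands at 7.02, a fitted value that depends on the prior count because parental counts are near 0, and the other labelled genes lie between -2.84 (DLX1) and 2.12 (RP11-2C24.6).

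TBPL1 had the lowest log2 difference among genes with a mean of at least 50 counts, a call and no overlap between groups. It encodes a TBP-like factor of the basal transcription machinery, known for its need in spermiogenesis, and lies at 6:134273308-134311570, plus strand. Normalized counts were 681, 592, 753 and 683 in the parental and 216, 220.0, 216 and 253 in the neutral libraries under tamoxifen. Every neutral library was below every parental library, with a log2 difference of -1.57 ± 0.086 (SE, adjusted p = 2.06e-11 by edgeR). Under vehicle the neutral libraries stood at 497, 609.9, 684 and 592 and the parental ones at 793, 646, 648 and 693, which overlap, with a log2 difference of -0.26 ± 0.100 (SE, adjusted p = 0.0935 by edgeR). The difference between these contrasts was -1.30 ± 0.14 on the log2 scale (SE, adjusted p = 6.16e-08 by edgeR). Its partner on the minus strand, SLC2A12, encodes the glucose transporter GLUT12 and overlaps the 3′ end of TBPL1. SLC2A12 was at 47.0 ± 3.02 in the parental and 16.4 ± 1.21 in the neutral libraries (mean ± SD), a log2 difference of -1.48 ± 0.23 (SE, adjusted p = 0.000157 by edgeR). Its contrast also differed between treatments, by -1.26 ± 0.31 (SE, adjusted p = 0.0238 by edgeR). Counts under both names were thus lower in the neutral line under tamoxifen, and whether they come from the same transcript was not tested.

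A pair of neighbouring epidermal genes on chromosome 1 was lower in the neutral line with or without the ligand. FLG, which encodes filaggrin, a keratin-bundling protein of the cornified skin, had 361, 341, 408 and 348 normalized counts in the parental and 124, 133, 152 and 145 in the neutral libraries under tamoxifen. The log2 difference was -1.39 ± 0.10 (SE, adjusted p = 2.06e-09 by edgeR), and FLG-AS1 on the other strand had at most 2 counts in any of the 16 libraries. HRNR (hornerin), a related S100 fused-type protein that lies within the span of FLG-AS1 without overlapping its exons, was at 695 ± 31.5 and 349 ± 33.6 (mean ± SD), a log2 difference of -0.98 ± 0.080 (SE, adjusted p = 1.38e-08 by edgeR). Neither pair of groups overlapped. Under vehicle the log2 differences were -1.67 for FLG and -0.84 for HRNR (adjusted p = 7.74e-11 and 1.24e-06 by edgeR). TMEM79, a membrane protein that is also known from the epidermal barrier, stood at 1020 ± 32.9 in the parental and 547 ± 46.4 in the neutral libraries, with a log2 difference of -0.89 ± 0.074 (SE, adjusted p = 1.64e-08 by edgeR). Its partner C1orf85, a lysosomal membrane protein, did not pass the test (-0.31, adjusted p = 0.663 by edgeR).

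SKIV2L2, an RNA helicase of the nuclear exosome, had among the highest counts of the lower genes. It had 3539, 2984, 3650 and 3372 normalized counts in the parental and 1580, 1603, 1770 and 1840 in the neutral libraries, without overlap, and a log2 difference of -0.98 ± 0.061 (SE, adjusted p = 9.20e-11 by edgeR). The end of SKIV2L2 overlaps PPAP2A, an androgen-responsive lipid phosphatase on the opposite strand, which had a log2 difference of -0.12 ± 0.20 (SE, adjusted p = 0.818 by edgeR). C18orf8, a partner of the MON1-CCZ1 complex of late endosomes, was lower in the neutral line, at 67.5 ± 13.4 against 170.5 ± 10.1 (mean ± SD), a log2 difference of -1.34 ± 0.15 (SE, adjusted p = 2.39e-06 by edgeR). Its partner NPC1, which exports cholesterol from lysosomes, had a log2 difference of -0.18 ± 0.27 (SE, adjusted p = 0.789 by edgeR). CERS6-AS1, across from the ceramide synthase gene CERS6, had 4276, 3993, 4687 and 4224 normalized counts in the parental and 1930, 2028, 2169 and 2232 in the neutral libraries. Its log2 difference was -1.03 ± 0.059 (SE, adjusted p = 2.06e-11 by edgeR), while CERS6 itself had at most 4 counts in any of the 16 libraries. The lncRNA ENSG00000245904, across from the antiproliferative gene BTG1 (at most 7 counts), was at 544 ± 81.4 and 212 ± 30.1 (mean ± SD), a log2 difference of -1.33 ± 0.11 (SE, adjusted p = 2.68e-08 by edgeR).

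Among genes higher in the neutral line, B3GALT6 had no exon overlap with a gene on the opposite strand. It encodes a galactosyltransferase that builds the linker through which glycosaminoglycan chains attach to proteoglycans, and lies at 1:1167617-1170421, plus strand. Normalized counts were 52.2, 70.0, 68.9 and 63.3 in the parental and 174, 154, 204 and 206 in the neutral libraries. The groups did not overlap, and the log2 difference of 1.55 ± 0.15 (SE, adjusted p = 2.03e-07 by edgeR) compared with 1.39 ± 0.16 under vehicle (SE, adjusted p = 4.77e-07 by edgeR). SEC24C, a cargo-binding subunit of the COPII coat, was 109 ± 23.3 in the parental and 215 ± 28.4 in the neutral libraries (mean ± SD), a log2 difference of 0.98 ± 0.14 (SE), and 1.04 ± 0.18 under vehicle. An unnamed gene model overlaps it on the opposite strand. SLC25A26, the mitochondrial carrier of S-adenosylmethionine, had 485, 426, 479 and 494 normalized counts in the parental and 927, 853, 978 and 992 in the neutral libraries. Its log2 difference was 1.003 ± 0.071 (SE, adjusted p = 1.01e-09 by edgeR), larger than the 0.57 ± 0.085 under vehicle by 0.43 ± 0.10 (SE, adjusted p of the difference 0.0223 by edgeR). Its partner LRIG1, a membrane protein that restrains receptor tyrosine kinases, had a log2 difference of -0.48 ± 0.21 (SE, adjusted p = 0.182 by edgeR).

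Among the 8 largest higher differences of the naming rule, the other genes were noncoding or had no position in the annotation used. RP11-442H21.2, not found in that annotation, was the most abundant, with 4404, 3781, 4593 and 4340 normalized counts in the parental and 8156, 8272, 8982 and 9477 in the neutral libraries. The log2 difference was 1.04 ± 0.058 under tamoxifen and 1.05 ± 0.074 under vehicle (SE, adjusted p = 2.06e-11 and 2.21e-11 by edgeR). RP11-2C24.6, likewise without a position, was at 44.4 ± 10.7 in the parental and 192 ± 44.2 in the neutral libraries (mean ± SD), a log2 difference of 2.12 ± 0.19 (SE). RP5-1120P11.1, across from C6orf223 (at most 1 count), was at 80.8 ± 26.5 and 230.4 ± 76.4, a log2 difference of 1.51 ± 0.27 (SE, adjusted p = 0.00926 by edgeR), and missed the threshold when parental replicate 1 was left out (adjusted p = 0.0505 by edgeR). SLC7A11-AS1, across from the cystine transporter gene SLC7A11 (at most 5 counts), had 163 ± 18.2 and 317 ± 48.0 normalized counts, a log2 difference of 0.96 ± 0.12 (SE). CTD-2396E7.10, across from the beta tubulin gene TUBB4A (at most 2 counts), had 58.8 ± 7.23 and 119 ± 14.7, a log2 difference of 1.02 ± 0.16 (SE). At none of these 5 genes did the groups overlap.

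Genes whose exons overlap no gene on the opposite strand were also fitted alone, although the strand setting of the counting is unknown for them too. In that fit 36 of 902 such genes (3.99%) were called by edgeR, 17 higher and 19 lower, and 29 of the 36 were among the 274. CPT1C, the neuronal carnitine palmitoyltransferase, had 8.71, 7.37, 6.56 and 24.7 normalized counts in the parental and 47.9, 46.0, 45.0 and 56.7 in the neutral libraries, a log2 difference of 2.02 ± 0.31 (SE, adjusted p = 0.000133 by edgeR). Parental replicate 4 lay above its group, still below every neutral library. NUP50, a nuclear pore protein that takes part in import, had 43.5, 35.0, 62.3 and 72.6 in the parental and 18.1, 5.12, 18 and 14.2 in the neutral libraries, a log2 difference of -1.87 ± 0.30 (SE, adjusted p = 0.000214 by edgeR). MAP1B, a microtubule-associated protein, had 66.8, 75.6, 68.9 and 51.0 and 20.2, 20.5, 25.5 and 34.6, a log2 difference of -1.37 ± 0.23 (SE, adjusted p = 0.000339 by edgeR). The groups of NUP50 and MAP1B did not overlap either. The processed pseudogene AC093724.2, whose reads may be shared with copies, had a log2 difference of -1.12 ± 0.22 (SE, adjusted p = 0.00191 by edgeR). CPT1C, NUP50 and MAP1B rest on means of 21.0, 21.9 and 29.0 counts per library and did not pass the test under vehicle, where their log2 differences were -0.15, -0.15 and -0.11 (adjusted p = 0.851, 0.751 and 0.848 by edgeR).

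A homeobox gene outside the naming rule, chosen after its values were seen, had a larger difference at low counts. DLX1 had 27, 17, 13 and 29 counts in the parental and 5, 5, 2 and 1 in the neutral libraries under tamoxifen. In normalized counts this was 34.2 ± 10.2 and 4.604 ± 3.04 (mean ± SD), a log2 difference of -2.84 ± 0.39 (SE, adjusted p = 3.39e-05 by edgeR). Under vehicle the neutral libraries held 27, 21, 28 and 31 counts, and the log2 difference was -0.26 ± 0.26 (SE, adjusted p = 0.640 by edgeR). The treatments differed by -2.58 ± 0.50 (SE, adjusted p = 0.00322 by edgeR).

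The vehicle libraries, which the tamoxifen comparison does not use, gave another reading of the line difference. There 388 of 3985 genes (9.74%) were called, with higher values in neutral cells at 160 and lower values at 228. Parental vehicle replicate 1 stood apart from its replicates (chi-square per gene 5.06 to 5.81), and without it 517 genes were called. Of the 274 genes called under tamoxifen, 241 (88.0%) had the same sign under vehicle, against 2645 (66.4%) of all tested genes. The share was 107 of 133 (80.5%) for the higher and 134 of 141 (95%) for the lower genes. Calls were shared at 118 genes, which were 43.1% of the tamoxifen and 30.4% of the vehicle calls. Across the 3985 genes the correlation of the log2 differences was 0.419, a description across genes that share libraries in each contrast and are not independent replicates. The genes already described spanned both patterns: FLG, HRNR, TMEM79, B3GALT6 and RP11-442H21.2 were called under either treatment, whereas TBPL1, NUP50, MAP1B and CPT1C were called under tamoxifen and had contrasts that differed between treatments.

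**Figure D3:**
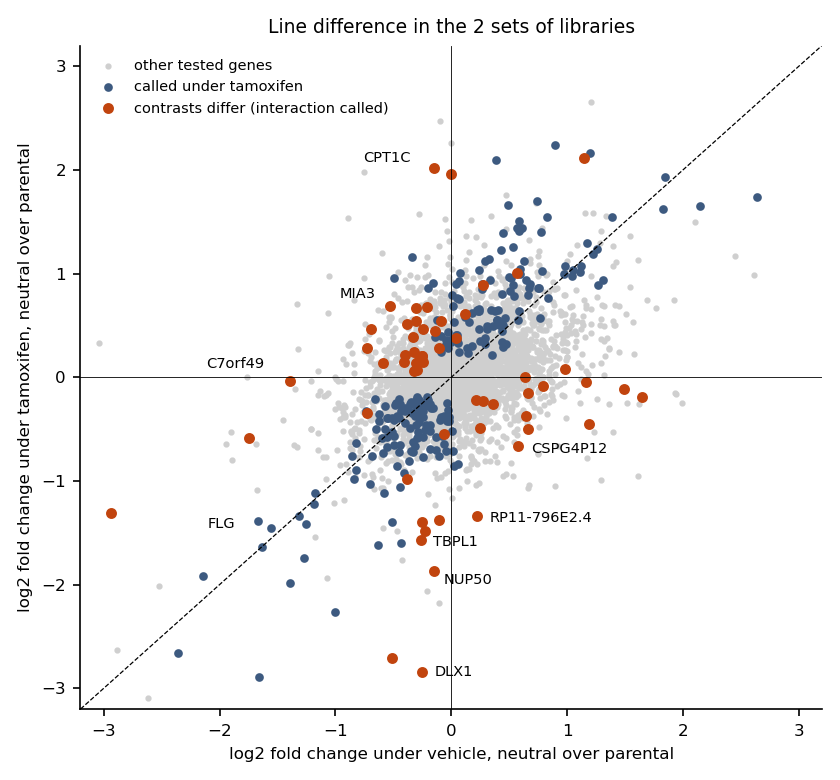
Log2 difference of the neutral against the parental line under vehicle (horizontal axis) and tamoxifen (vertical axis), with a point for each of 3975 genes; 10 genes lie outside the axes at ±3.2. Genes whose contrasts differ between treatments (59 by edgeR) are red, other genes called under tamoxifen are blue, and the dashed line marks equal values.

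The contrasts were tested against each other in a model over the 16 libraries. They differed at 59 of 3985 genes (1.48%, edgeR), of which 34 were more positive and 25 more negative under tamoxifen. Of the 59 genes, 23 were called under tamoxifen alone, 24 under vehicle alone, 9 under both and 3 under neither. In the parental line itself 0 genes were called between tamoxifen and vehicle by edgeR, with 306 at an unadjusted p under 0.05, while 188 genes (4.72%) were called within the neutral line. The parental comparison holds vehicle replicate 1, which stood apart, and was not repeated without it. The absence of calls therefore does not show that the parental line has no response. At 4 of the 9 genes called under both treatments the line difference had opposite signs.

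C7orf49, a regulator of DNA end joining, had the smallest p of the interaction. Its normalized counts were 494, 481, 515 and 525 in the parental and 191, 194, 212 and 190.3 in the neutral vehicle libraries. Under tamoxifen they were 649, 603, 627 and 638 and 615, 667, 586 and 574. The neutral line was thus below the parental line under vehicle and overlapped it under tamoxifen, with log2 differences of -1.40 ± 0.099 and -0.03 ± 0.075 and a difference between them of 1.36 ± 0.11 (SE, adjusted p = 8.35e-10 by edgeR). MIA3, which exports collagen from the endoplasmic reticulum, crossed over. It had 574, 556, 526 and 511 and 350.5, 372, 430.3 and 390.0 normalized counts in parental and neutral vehicle libraries, and 538, 492, 504 and 514 and 798, 810.2, 853 and 809 under tamoxifen. The neutral line was lower under vehicle (-0.53 ± 0.095) and higher under tamoxifen (0.68 ± 0.068), a difference of 1.22 ± 0.11 (SE, adjusted p = 4.56e-09 by edgeR). The opposite-strand partners of these genes, TMEM140, RP11-134L10.1 and RP11-378J18.8, were not called in the interaction (adjusted p = 0.438, 0.599 and 0.906 by edgeR).

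ENSG00000245904, the lncRNA across from BTG1, and TBPL1 completed the 4 genes with the smallest p. The lncRNA had 391, 488, 542 and 569 and 648, 606, 578 and 553 normalized counts in parental and neutral vehicle libraries, a log2 difference of 0.22 ± 0.098 (SE, adjusted p = 0.172 by edgeR). Under tamoxifen it had 588, 428, 610.3 and 549.8 and 251, 201, 216 and 179, without overlap. The contrasts differed by -1.56 ± 0.15 (SE, adjusted p = 1.21e-08 by edgeR). SKIV2L2 was lower under both treatments, and its contrast under tamoxifen was the more negative one, with a difference of -0.60 ± 0.10 (SE, adjusted p = 0.000969 by edgeR). Besides MIA3, the genes with opposite signs were VTI1B, a vesicle SNARE across from ARG2, CTD-2541J13.2 across from DSEL, and the pseudogene CSPG4P12, named after their values were seen. Their log2 differences were 0.21, 0.38 and -0.67 under tamoxifen and -0.25, -0.33 and 0.58 under vehicle. CSPG4P12 may share reads with its parent gene and other copies.

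**Figure D4:**
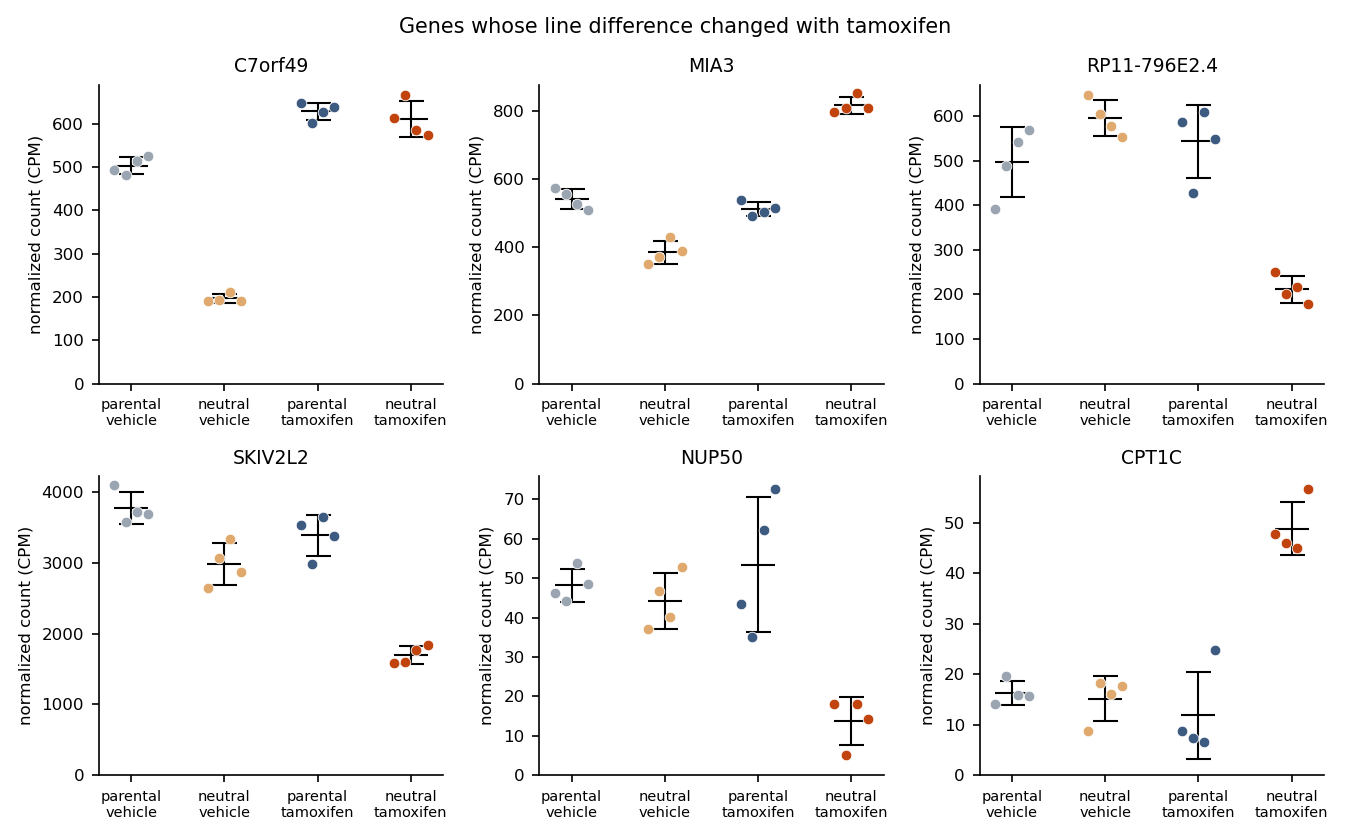
Normalized counts (CPM) of C7orf49, MIA3, the lncRNA across from BTG1 (ENSG00000245904, plotted under its clone name), SKIV2L2, NUP50 and CPT1C in the parental and neutral lines under vehicle and tamoxifen, with a point for each library and a bar at the mean ± SD. MIA3 lies below the parental line under vehicle and above it under tamoxifen, and NUP50 and the lncRNA are lowest in the neutral tamoxifen libraries.

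The same parental tamoxifen libraries serve as reference for the repressive and activating lines, so these contrasts share controls and are set side by side only. For TBPL1 the log2 differences were -1.57, -2.02 and -0.095 in the neutral, repressive and activating lines. FLG had -1.39, -4.29 and -1.41, and HRNR -0.98, -3.38 and -1.30. For SKIV2L2 they were -0.98, -1.78 and 0.92, for CERS6-AS1 -1.03, -1.002 and 1.14 and for TMEM79 -0.89, -0.98 and 0.94. B3GALT6 had 1.55, 1.66 and -0.95, and MIA3 0.68, 0.41 and -2.12. DLX1 had -2.84, -5.92 and 5.88. RP11-442H21.2 had 1.04, 1.004 and 2.01.

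In androgen signalling, the pathway whose DNA element the construct recognizes, HERC3 was the 1 called gene of 12 tested among 30 androgen-responsive genes, where 6.88% of all tested genes were called. It encodes a HECT ubiquitin ligase. Its log2 difference was -0.21 ± 0.057 (SE, adjusted p = 0.0262 by edgeR), and it was not called by DESeq2 or without neutral replicate 1. The median over the 12 genes was -0.10, against 0.0035 over all 3985, and 4 of them were positive. KLK3, the gene of prostate-specific antigen, had a log2 difference of 0.13 ± 0.23 (SE, adjusted p = 0.831 by edgeR). FKBP5, a co-chaperone of steroid receptors, had -0.36 ± 0.54 (SE, adjusted p = 0.784 by edgeR). With standard errors of this size a modest difference was not detectable at these counts. PMEPA1, an androgen-induced membrane protein, had -0.96 ± 0.31 (SE, adjusted p = 0.0650 by edgeR). Among 7 tested genes on the strand opposite to these genes, SKIV2L2 was lower and the lncRNA ENSG00000260213, across from CENPN, was higher (1.39 ± 0.34, SE).

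Most cell cycle and lineage genes did not pass the expression filter. Of 43 S phase genes 5 were tested and of 54 G2/M genes 8, and 0 were called by edgeR or DESeq2 in either list, with 1 and 0 at an unadjusted p under 0.05. Over all 3985 tested genes edgeR called 6.88%. At that share lists with so few tested genes can hold 0 calls, so the counts in this paragraph do not set the lists apart. MKI67, the proliferation marker Ki-67, had a log2 difference of -0.071 ± 0.42 (SE, adjusted p = 0.953) and TYMS, thymidylate synthase, 0.22 ± 0.31 (SE, adjusted p = 0.763, both by edgeR). ENOSF1, across from TYMS, had a log2 difference of -0.18 (adjusted p = 0.0986 by edgeR). INTS8, across from the S phase gene CCNE2, was lower (-0.35 ± 0.083, SE, adjusted p = 0.00961 by edgeR). The 2 basal keratins in the tested set, KRT5 and KRT6A, had 0 counts in all 16 libraries and could not give a call. No call was made for the 1 neuroendocrine and 2 EMT genes tested, nor among 2 interferon, 2 estrogen response and 4 sterol synthesis genes, by either tool. At an unadjusted p under 0.05 there was 1 gene each in the neuroendocrine, estrogen response and sterol lists and 0 in the EMT and interferon lists. Across from FDPS, a sterol synthesis enzyme, RUSC1-AS1 was higher (0.30 ± 0.079, SE, adjusted p = 0.0190 by edgeR).

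Stress and metabolic lists held the remaining called members. Among 14 tested of 26 hypoxia and glycolysis genes, VEGFA and PGK1 were higher and SLC2A12 lower, with a median log2 difference of 0.41 and 12 of the 14 positive. Over all 3985 tested genes 6.88% were called, 2007 were positive and the median was 0.0035. Under vehicle the list had 2 called genes and a median of 0.43. VEGFA, the angiogenic growth factor, had 13, 12, 11 and 17 counts in the parental and 53, 25, 20 and 23 in the neutral libraries, a log2 difference of 0.99 ± 0.26 (SE, adjusted p = 0.0232 by edgeR). Of 8 tested features on the opposite strand of this list, 2 were called higher and 1 lower. RP1-261G23.7 inside VEGFA was higher by 1.93 ± 0.23 (SE), RP11-192H23.5 across from ALDOC was higher by 0.80 ± 0.11 (SE), and TBPL1 was lower. PGK1, phosphoglycerate kinase, had 17, 11, 17 and 7 and 40, 15, 35 and 26 counts, which overlap after scaling, and a log2 difference of 0.97 ± 0.28 (SE, adjusted p = 0.0379 by edgeR). Neither VEGFA nor PGK1 was called without neutral replicate 1, by DESeq2's test or with a replicate block, whereas SLC2A12 was called in each. Under vehicle VEGFA was called (0.97, adjusted p = 0.0401 by edgeR) and PGK1 was not (0.50, adjusted p = 0.228 by edgeR). The vector carries a PGK promoter, and its part in the PGK1 count was not tested. GDF15, a stress-induced cytokine and the 1 called gene of 4 tested p53 targets, had 8, 10, 9 and 12 and 29, 14, 22 and 20 counts and a log2 difference of 0.94 ± 0.27 (SE, adjusted p = 0.0364 by edgeR). Its call was also lost without neutral replicate 1, by DESeq2's test and with a replicate block. Under vehicle GDF15 was called (1.31, adjusted p = 0.00623 by edgeR). Of 8 tested genes of the unfolded protein and integrated stress response 0 were called by edgeR or DESeq2, and 0 had an unadjusted p under 0.05. Of 6 tested features on the opposite strand of this list, 2 were called higher and 1 lower. MARS, a methionyl-tRNA synthetase across from DDIT3, was higher (1.07 ± 0.23, SE, adjusted p = 0.00368 by edgeR), as was SLC7A11-AS1. CTC-425F1.4, across from CALR, was lower (-0.33 ± 0.068, SE, adjusted p = 0.00316 by edgeR). Of 5 tested features across from p53 targets, 1 was called, RP11-611O2.5 across from MDM2, which was lower (-0.42 ± 0.065, SE, adjusted p = 0.000154 by edgeR).

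All 13 protein-coding genes of the mitochondrial genome were tested, and their reads may be shared with nuclear copies. Their median log2 difference was 0.58, and 12 of 13 were positive, between 0.23 and 0.82, against 2007 positive of all 3985 tested genes. Of the 13, 3 were called, where the share over all tested genes was 6.88%. MT-CYB, a subunit of complex III, had 258, 258, 212 and 323 normalized counts in the parental and 325, 394, 384 and 469 in the neutral libraries, a log2 difference of 0.58 ± 0.12 (SE, adjusted p = 0.00560 by edgeR). MT-CO1, a subunit of complex IV, had 0.56 ± 0.15 (SE, adjusted p = 0.0343 by edgeR), with overlapping groups. MT-ND6, the 1 gene of the 13 on the other strand, was lower (-0.21 ± 0.057, SE, adjusted p = 0.0229 by edgeR), and the groups of MT-CYB and MT-ND6 did not overlap. Per kilobase of exon MT-ND6 had a mean of 9058 counts and MT-CYB 191. Under vehicle 0 of the 13 genes were called by edgeR and 1 by DESeq2, 1 had an unadjusted p under 0.05, and the median was 0.30. Without neutral replicate 1, 5 of the 13 were higher and 1 was lower.

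**Figure D5:**
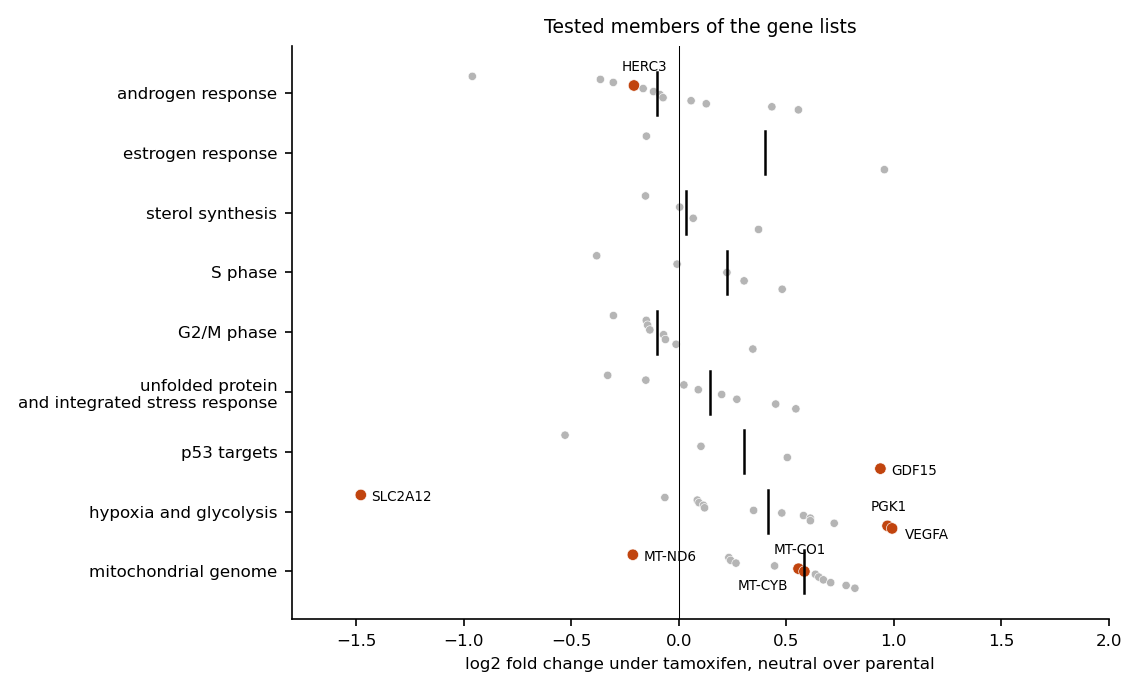
Log2 difference of the neutral against the parental line under tamoxifen (horizontal axis) for the tested members of 9 gene lists, with called genes in red and a black bar at each list's median. Mitochondrial genes lie to the right of 0 except MT-ND6, and androgen-responsive genes lie around 0.

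At 10 pairs of genes on opposite strands both members were called, with the same sign in 5. Chosen after their values were seen, FADS2 and FADS1, fatty acid desaturases side by side on chromosome 11, were higher, with log2 differences of 0.65 and 0.49. ERCC1, a DNA repair nuclease subunit, was lower (log2 difference -0.72) while CD3EAP across from it was higher (0.54). HEATR1, a ribosome biogenesis factor, was higher (0.89) and LGALS8, a galectin, lower (-0.39). Over 760 pairs in which both genes were tested, 403 (53%) had the same sign.

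The letters of the ARE were searched for at promoters. In RefSeq promoters of GRCh38.p14, the full element, an inverted repeat of AGAACA with a gap of 3 bases, was found on either strand in 0 of 2126 promoters of tested genes and in 1 of 27305 overall. The repeat unit AGAACA, which the full element also holds, was found in 9.22% of promoters of tested genes. It was in 4 of 67 promoters (5.97%) for genes higher in the neutral line and 6 of 49 (12.2%) for lower ones. For promoters of opposite-strand partners the shares were 8.67%, 10.2% and 13.5%, and 14.9% of all promoters hold it. For genes with an interaction call, 16.7% of 30 own promoters and 15.4% of 39 partner promoters held it. Differences between these shares, which rest on few matches, were not tested. A match describes these letters in this window and is no binding site.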

How the data were processed

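RNA of LNCaP lines was profiled after 48 h with 2.5 µM tamoxifen or vehicle, and samples were grouped by their labels, with 4 biological replicates per group. Nothing describes these as separate cultures, so p-values measure the spread between these libraries. The authors prepared stranded mRNA libraries, ran nf-core/rnaseq with salmon 1.9.0 on GRCh37 and deposited estimated counts per gene without normalization, with DESeq2 1.28.0 also named in the submitters' processing notes. The annotation release and strand setting are not given in the sources used here.

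Estimated counts were rounded. Genes were kept by filterByExpr over 8 groups (3985 genes) and tested with edgeR 4.0.16 in R 4.3.3 (TMM, quasi-likelihood, robust), with Benjamini-Hochberg adjustment at 0.05. The standard error is the absolute log2 value divided by the square root of F. Normalized counts are CPM with TMM factors over 32 libraries. DESeq2 1.42.0, DESeq2 size factors, no filter, a replicate block, a fit of genes without opposite-strand exon overlap and leaving out each library were alternatives. Scripts were tested on simulated data. Opposite-strand exon overlap (1 base or more) and positions came from GENCODE lifted to GRCh37, in which 96.1% of genes were found.

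Named genes were the 8 largest log2 differences in each direction among called genes whose groups did not overlap and whose mean reached 50 counts. To these were added the 4 largest in each direction without opposite-strand overlap (at least 20 counts), the 4 smallest interaction p-values, construct genes, TBPL1, and called members of the gene lists. The comparison, its gene lists and markers were chosen with earlier results of these data known. Totals of 454982 to 1164808 counts per library limit the precision for low genes. Some genes and lists of the rule are not reported here.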

Additional observations from a re-analysis of the deposited data

Results flagged for a closer look

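In 8 of 132 groups of 4 libraries examined, a library lay far from the other 3 by Dixon's test, and chance gives about 1 in 20. Under tamoxifen, neutral replicate 4 was at 253.4 normalized counts for TBPL1 (lowest of the others 215.9) and neutral replicate 2 at 615.7 for TMEM79 (lowest of the others 518.9). Parental replicate 4 was at 24.71 for CPT1C and 213.1 for MT-CO1. Under vehicle, neutral replicate 3 was at 211.8 for C7orf49, HERC3 was at 6201 in parental replicate 1 and 4819 in neutral replicate 3, and GDF15 was at 32.73 in parental replicate 2.

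For 11 of the named genes the neutral against parental contrast differed between tamoxifen and vehicle in edgeR's interaction test. The differences (tamoxifen minus vehicle, log2) were more positive under tamoxifen for CPT1C (2.17), C7orf49 (1.36), MIA3 (1.22), RP11-2C24.6 (0.97) and SLC25A26 (0.43). They were more negative for NUP50 (-1.72), ENSG00000245904, the lncRNA across from BTG1 (-1.56), TBPL1 (-1.30), MAP1B (-1.26), SLC2A12 (-1.26) and SKIV2L2 (-0.60). The adjusted p ranged from 8.35e-10 (C7orf49) to 0.0434 (RP11-2C24.6). Neutral tamoxifen replicate 1 stood apart in these fits, and without it the number of genes with an interaction call was 70 rather than 59. Parental vehicle replicate 1 also stood apart, with a chi-square per gene of 5.06 to 5.81 against its replicates (1.45 to 1.64 among the others), and without both libraries the number was 59.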

How the results depend on the processing

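The count of 274 genes under tamoxifen was 180 with DESeq2's test, 155 with a replicate block and 36 of 902 genes without opposite-strand overlap, and 155 to 293 when each library was left out (155 without neutral replicate 3, 293 without neutral replicate 1, 188 to 197 without a parental replicate). In 134 genes the call held in the full fit and all 8 such fits. Under vehicle the count of 388 was 208 with the block, 36 without opposite-strand overlap (25 higher, 11 lower) and 202 to 517 with each library left out (lowest without parental replicate 3, highest without parental replicate 1), and without the filter 300 genes split into 153 higher and 147 lower, against 160 and 228. The 59 interaction calls were 11 without opposite-strand overlap and 34 to 70 with each library left out (lowest without parental tamoxifen replicate 4 or neutral vehicle replicate 2). The cause of these changes was not tested, beyond the smaller numbers of genes or libraries. Same-numbered libraries did not deviate together (correlations of -0.28 to 0.0437 under tamoxifen and -0.224 to 0.0174 under vehicle), so the replicate block pairs numbers only. Members of gene lists called numbered 10, and 9 without neutral replicate 1. Of 582 values for 36 named results, 533 kept their direction and side of the threshold, 48 lost the call and 1 changed sign: C7orf49 under tamoxifen, not called, ranged from -0.0823 to 0.0026 with each library left out and was positive without neutral replicate 4. The calls lost were those of HERC3, GDF15, VEGFA, PGK1, MT-CYB, MT-ND6, MT-CO1 and RP5-1120P11.1. Members of the lists that did not pass the expression filter could not be tested, and whether depth or the strand of counting kept them out was not tested.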

Other observations

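In a principal component analysis of the 16 parental and neutral libraries, PC1 (19.71% of the variance) did not separate the lines. Its scores ran from -26.2 (vehicle replicate 1) to 18.7 (tamoxifen replicate 4) in parental libraries. In neutral libraries they ran from -19.8 (tamoxifen replicate 4) to 12.0 (tamoxifen replicate 1). PC2 (17.91%) separated the lines, with scores of 3.25 to 23.3 in parental and -6.49 to -14.4 in neutral libraries. PC3 (8.216%) separated treatments within the neutral line, with 7.42 to 13.8 under tamoxifen and -8.97 to -10.6 under vehicle.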
